A study of Mus musculus with 27 samples.

Results

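Interferon-stimulated genes were followed in the colonic epithelium of mice given increasing doses of dioxin (TCDD). The 9 genes were Isg15, Usp18, Ifit1, Ifit3, Oas1a, Oasl2, Rsad2, Ifi44 and Irf7, found by matching Ensembl identifiers to these symbols, and they make up 9 of the 46078 gene rows of the count data. All 9 passed the filter on low counts, with which 16496 genes were tested. The animals were C57BL/6 males, and gavage was given at intervals of 4 days over 28 days, from an age of 28 days to an age of 56 days. Controls received the sesame oil vehicle, and the others received TCDD in the oil at 1 of 8 doses, which were 0.01, 0.03, 0.1 and 0.3 μg/kg in the low range and 1, 3, 10 and 30 μg/kg in the high range. Each of the 9 groups held 3 mice, and RNA-seq was run on scrapings of the epithelium from each of the 27 mice. A scraping is a mixture of cells, and in such a mixture fewer cells of a type and less RNA per cell cannot be told apart.

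Interferons are secreted in response to viruses and microbial nucleic acids. Type I interferons bind a receptor on almost every cell, and type III interferons act mainly on epithelia, where their receptor is found. Both act through the ISGF3 complex, which holds STAT2 and IRF9. ISGF3 binds interferon-stimulated response elements (ISREs) in the promoters of target genes, and intestinal epithelium keeps a low tonic level of this signaling. TCDD binds the aryl hydrocarbon receptor (AhR), a transcription factor that recognises dioxin response elements (DREs).

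The promoter sequences show where these binding letters lie. In the RefSeq promoters of GRCm38.p6, taken from 250 bases before to 50 bases after the start of each gene, 8 of the 9 genes were matched and Usp18 was not. The ISRE core, GAAA and a second GAAA with 2 bases of any kind between them, was searched on both strands. It occurred in 5 of the 8 (Isg15, Oas1a, Rsad2, Ifit3 and Ifit1) and in 3.44% of all 32851 promoters of that length. The windows of 40 bases that hold these matches are printed 5′ to 3′ on the strand of the gene, with the matches in capitals. On the opposite strand the core reads TTTC, 2 bases and TTTC, and overlapping matches run together.
Isg15, chr4:156200866-156200905, minus strand: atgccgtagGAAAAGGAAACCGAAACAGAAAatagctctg
Oas1a, chr5:120907518-120907557, minus strand: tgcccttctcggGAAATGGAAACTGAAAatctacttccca
Rsad2, chr12:26456548-26456587, minus strand: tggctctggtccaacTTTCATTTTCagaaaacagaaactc
Ifit3, chr19:34583358-34583397, plus strand: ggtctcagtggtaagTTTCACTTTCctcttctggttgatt
Ifit3, chr19:34583392-34583431, plus strand: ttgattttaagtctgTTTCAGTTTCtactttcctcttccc
Ifit1, chr19:34640780-34640819, plus strand: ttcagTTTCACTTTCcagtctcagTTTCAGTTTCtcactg

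Isg15 held 3 overlapping cores between 78 and 57 bases before its start, and Ifit1 held a pair between 104 and 76 bases before its start. The DRE core GCGTG, the letters bound by the AhR, occurred in 3 of the 8 promoters (Rsad2, Ifi44 and Oasl2) and in 32.4% of all promoters. Those before the start of a gene are shown because they sit in promoters of the family under study.
Rsad2, chr12:26456461-26456500, minus strand: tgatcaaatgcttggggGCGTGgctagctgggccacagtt
Ifi44, chr3:151749963-151750002, minus strand: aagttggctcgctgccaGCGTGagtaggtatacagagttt

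The gamma-activated sequence TTCNNNGAA was found in 1 of the 8 (Oas1a) and in 8.3% of all promoters. These matches are descriptions of the letters and not bound sites.

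Depth was even, with 9305441 to 14371035 counts assigned to genes per mouse (median 11651026). Cyp1a1, the classical target of the AhR, stood at 0 to 0.0984 CPM (counts scaled to the library size, with TMM factors) in vehicle mice and at 2066 to 2427 CPM at 30 μg/kg. The index barcodes of the libraries ran through once and then began again. The first run, here index set 1, holds the vehicle mice, all mice of the 4 lowest doses (15 in all) and mouse 41 of the 1 μg/kg group, and index set 2 holds the other 11 mice, so that index set and dose go together. The 9 epithelial markers examined summed to between 11927 and 17735 CPM in each mouse, and the 11 pan-leukocyte and lymphocyte markers to between 23.9 and 49.8 CPM.

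Per kilobase of exon, Irf7 was the most abundant of the 9 genes and Ifi44 the least. Irf7, a transcription factor that amplifies interferon production, averaged 27.6 CPM per kb over the 27 mice. Ifit1, Oasl2, Oas1a and Isg15 followed at 9.81, 9.61, 8.78 and 7.61 CPM per kb, Rsad2 at 4.18, Usp18 at 1.27, Ifit3 at 1.17 and Ifi44 at 0.357. The counts were small for Ifit3 (8 to 49 per mouse), Ifi44 (9 to 54) and Usp18 (21 to 77). Exons of Irf7 overlap those of Phrf1 on the opposite strand, and reads of the pair cannot be told apart where counting ignores strand. Ifit1 shares sequence with Ifit1bl1 and Ifit1bl2, Ifit3 with Ifit3b, and Oas1a with Oas1g, and how reads were split among such copies makes their levels uncertain.

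Isg15 and Usp18 belong to the pathway that attaches ISG15, a ubiquitin-like protein, to other proteins and removes it again. Isg15 (chr4:156199424-156200818, minus strand) encodes the modifier itself. In vehicle mice it was measured at 5.41, 4.01 and 3.93 CPM. At 0.01 μg/kg the 3 mice had 3.72, 4.27 and 3.89 CPM, and at 0.03 μg/kg they had 2.62, 5.95 and 3.41 CPM. These values lay around those of the vehicle mice. At 0.1 μg/kg Isg15 stood at 4.81, 3.86 and 4.38 CPM, and at 0.3 μg/kg at 5.11, 3.87 and 4.07 CPM. At 1 μg/kg it stood at 8.79, 9.22 and 7.85 CPM, so that all 3 mice were above the 3 vehicle mice. In the 3 μg/kg group the mice had 8.92, 5.15 and 5.35 CPM. The values of the 10 μg/kg group were 10.7, 10.2 and 6.94 CPM, and those of the 30 μg/kg group were 8.27, 4.35 and 6.29 CPM. The mice at 10 μg/kg were all above the vehicle mice, whereas those at 3 and 30 μg/kg overlapped them.

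Usp18 (chr6:121245906-121270917, plus strand) encodes the protease that removes ISG15 and also blocks signaling at the type I interferon receptor. Vehicle mice had 2.07, 3.48 and 3.73 CPM, and the 12 mice from 0.01 to 0.3 μg/kg lay between 1.60 and 4.10 CPM. At 1 μg/kg the values were 5.46, 3.66 and 4.57 CPM, and at 3 μg/kg 4.04, 3.17 and 3.10 CPM. At 10 μg/kg they were 4.61, 6.59 and 4.40 CPM, and at 30 μg/kg 4.89, 4.18 and 3.97 CPM. Every mouse at 10 and 30 μg/kg was above the highest vehicle mouse.

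The 2′-5′ oligoadenylate synthetase family is represented by Oas1a, which makes the second messenger that activates RNase L, and by the OAS-like gene Oasl2. Oasl2 (chr5:114896936-114912234, plus strand) stood at 46.5, 60.8 and 55.0 CPM in vehicle mice. It was lower than that in all 3 mice at 0.01 μg/kg, at 35.2, 38.6 and 34.1 CPM. At 0.03, 0.1 and 0.3 μg/kg the 9 mice ranged from 25.9 to 64.4 CPM and overlapped the vehicle mice. At 1 μg/kg Oasl2 stood at 75.6, 93.3 and 65.2 CPM, and at 3 μg/kg at 87.3, 58.1 and 67.8 CPM. At 10 μg/kg it reached 143, 109 and 79.0 CPM, and at 30 μg/kg it was 87.5, 65.2 and 52.5 CPM. All mice at 1 and 10 μg/kg were above the vehicle mice, and 1 mouse at 3 μg/kg and 1 at 30 μg/kg fell within the vehicle range. Oas1a (chr5:120896256-120907521, minus strand) moved over a narrower range, from 14.3, 15.6 and 17.1 CPM in vehicle mice to 27.6, 16.7 and 21.0 CPM at 10 μg/kg and 19.1, 13.5 and 14.6 CPM at 30 μg/kg.

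Rsad2 and the IFIT genes encode effectors that act on viral replication and on foreign RNA. Rsad2 (chr12:26442746-26456452, minus strand) encodes viperin, and it was the gene whose mean was highest in vehicle mice, at 23.7, 22.5 and 23.5 CPM. The mice at 3 μg/kg had 13.7, 11.8 and 14.7 CPM, those at 10 μg/kg had 26.9, 18.4 and 12.5 CPM, and those at 30 μg/kg had 17.0, 10.2 and 11.7 CPM. All mice at 3 and 30 μg/kg were below the vehicle mice, whereas those at 10 μg/kg spanned them. Ifit1 (chr19:34640871-34650009, plus strand) had 26.8, 30.8 and 34.3 CPM in vehicle mice, 36.3, 54.7 and 23.6 CPM at 10 μg/kg and 27.04, 15.1 and 17.4 CPM at 30 μg/kg. Its 27 values spanned 13.4 to 54.7 CPM, and the groups at 10 and 30 μg/kg overlapped the vehicle range. Ifit3 (chr19:34583531-34588731, plus strand) spanned 0.656 to 4.11 CPM, with 1.67, 3.06 and 2.26 CPM in vehicle mice, 2.30, 4.11 and 1.94 CPM at 10 μg/kg and 1.65, 0.920 and 1.72 CPM at 30 μg/kg.

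Ifi44 (chr3:151730922-151749960, minus strand) ranged from 0.891 to 4.62 CPM. Its vehicle mice had 2.16, 2.85 and 2.36 CPM, the mice at 10 μg/kg 3.16, 4.62 and 1.79 CPM and those at 30 μg/kg 3.60, 1.09 and 1.90 CPM. Irf7 (chr7:141262706-141266481, minus strand) ranged from 63.0 to 154 CPM, and both extremes were mice at 0.01 μg/kg. It stood at 132, 111 and 103 CPM in vehicle mice, 123, 136 and 94.3 CPM at 10 μg/kg and 92.0, 92.2 and 91.1 CPM at 30 μg/kg. The last of these groups was below the vehicle range in all 3 mice.

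**Figure D1:**
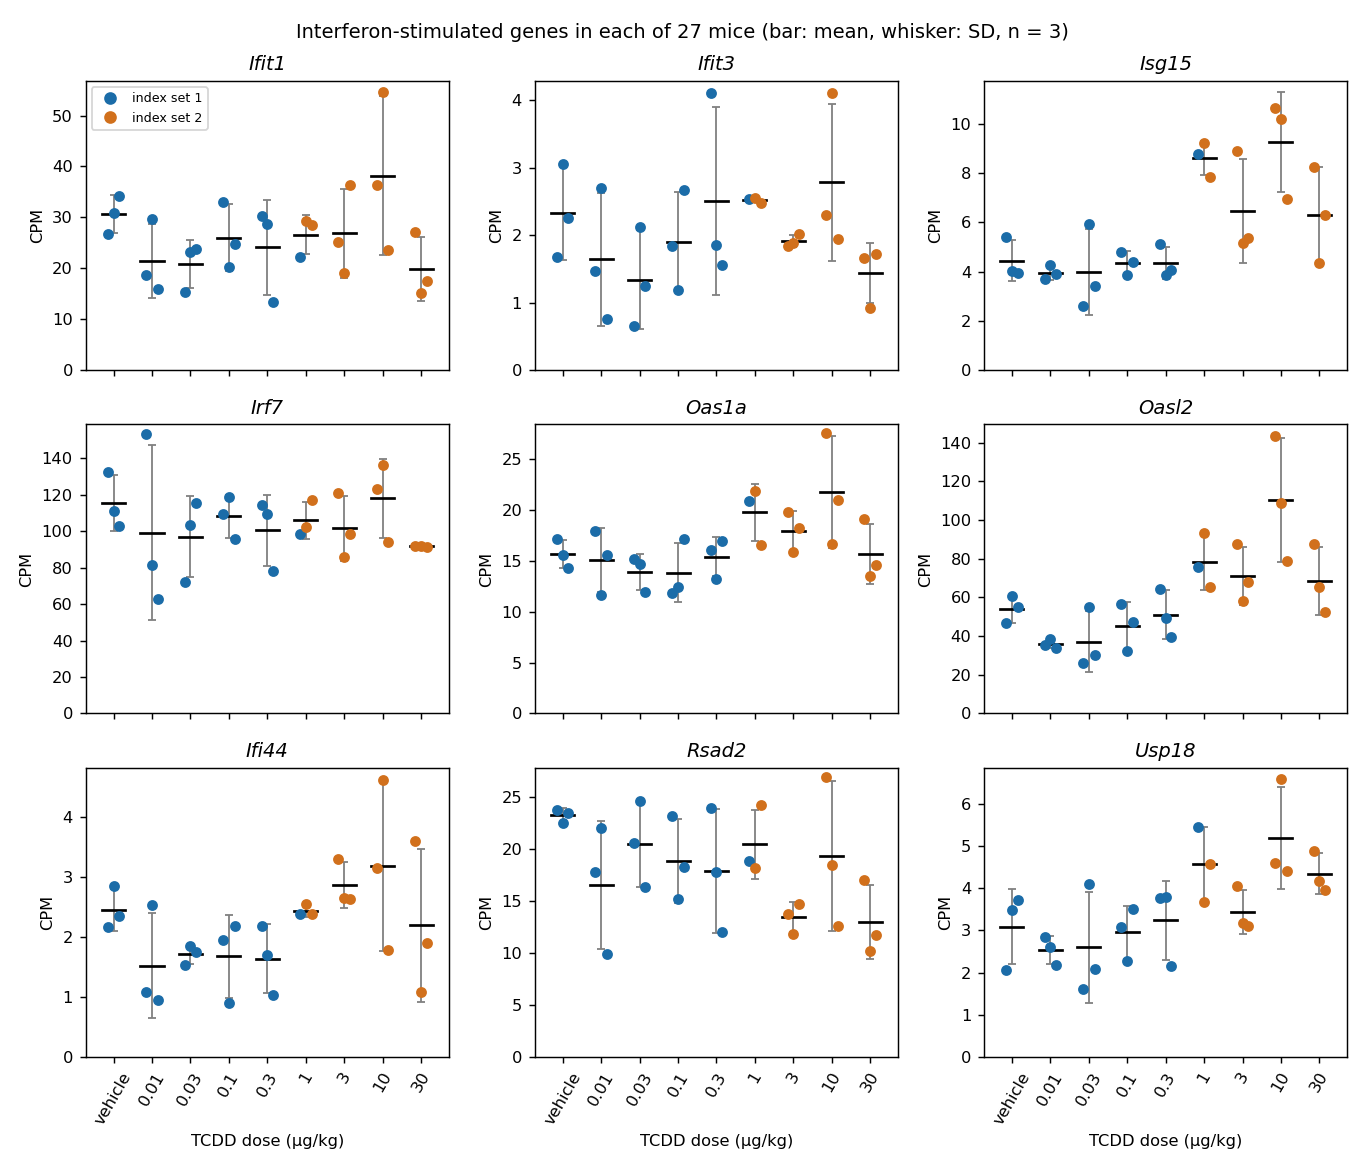
CPM (y axis, linear from 0, scaled by TMM) of each of the 9 genes in each mouse against TCDD dose (x axis, in groups), with points coloured by index set, bars at the group mean and whiskers of 1 SD (n = 3). The mice at 10 μg/kg lie above all vehicle mice for Isg15, Oasl2 and Usp18, the 10 μg/kg group has the highest mean for 8 of the 9 genes, and the exception is Rsad2, highest in vehicle.

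Against vehicle, calls for these genes fell at 10 μg/kg alone. A call is an adjusted p under 0.05 in edgeR's quasi-likelihood test, adjusted over all 16496 genes, with a change of 1.5-fold or more. At 10 μg/kg Isg15 rose 2.07-fold (log2 fold change 1.05, SE 0.27, adjusted p = 0.0301) and Oasl2 rose 2.04-fold (log2 fold change 1.03, SE 0.26, adjusted p = 0.0312). That is 2 of 9 genes, where 1.78% of all genes were called at that dose and 0.812% were called higher. Group means went from 4.45 ± 0.836 to 9.26 ± 2.03 CPM for Isg15 and from 54.1 ± 7.18 to 110 ± 32.2 CPM for Oasl2 (SD, n = 3 mice). Usp18 was 1.68-fold higher at 10 μg/kg with an adjusted p of 0.172 (log2 fold change 0.75, SE 0.29), and the log2 fold change of Oas1a was 0.47 (SE 0.19). The estimate was above 0 for 8 of the 9 genes at this dose, with a median log2 fold change of 0.37, where the median over all genes was -0.011, and 4 of the 9 had an unadjusted p under 0.05, as did 17.8% of all genes. The calls rest on few mice, since without mouse 3 or 4 of the vehicle group, or without mouse 57 or 58 at 10 μg/kg, 0 of the 9 genes passed, and without vehicle mouse 2 Isg15 alone passed. With a term for the index set, 0 passed, where 0.352% of all genes were called, with log2 fold changes of 1.10 (SE 0.47) for Isg15 and 0.96 (SE 0.47) for Oasl2.

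At 30 μg/kg, the highest dose, none of the 9 genes was called, where 6.16% of all genes were. Rsad2 was the gene with the lowest unadjusted p, with a log2 fold change of -0.83 (SE 0.28, adjusted p = 0.0569). DESeq2 called Rsad2 and none of the others at this dose, where it called 6.81% of all genes, and with the index set in the edgeR model Rsad2 had a log2 fold change of -1.004 (SE 0.51, adjusted p = 0.276). At this dose 1 of the 9 had an unadjusted p under 0.05 by edgeR, as did 27% of all genes. The estimates at 30 μg/kg were 0.51 for Isg15, 0.34 for Oasl2 and 0.49 for Usp18, all with intervals that included 0. At 3 μg/kg 0 genes were called where 0.697% of all genes were, and Rsad2 had a log2 fold change of -0.79 (SE 0.28), the only one of the 9 with an unadjusted p under 0.05, as 16% of all genes had. At 1 μg/kg 0 were called where 0.2% of all genes were, and the log2 fold change of Isg15 was 0.95 (SE 0.27, adjusted p = 0.182), the only one of the 9 with an unadjusted p under 0.05, as 9.8% of all genes had. DESeq2 also called 0 of the 9 at 1 and 3 μg/kg, where it called 0.443% and 1.19% of all genes.

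From 0.01 to 0.3 μg/kg, edgeR and DESeq2 called 0 of the 9 genes, and edgeR called 0% of all genes at each of these doses. At an unadjusted p under 0.05 there was 1 of the 9 at 0.01 μg/kg (Oasl2, log2 fold change -0.59, SE 0.27) and 0 at the 3 other doses. Of all genes, 6.35%, 4.64%, 6.37% and 5.19% were under that p at these doses in rising order. All 9 estimates were below vehicle at 0.01, 0.03 and 0.1 μg/kg, with medians of -0.48, -0.25 and -0.24, where the share of all genes above vehicle was 51.6%, 50.1% and 50.3%. These comparisons share the same 3 vehicle mice.

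**Figure D2:**
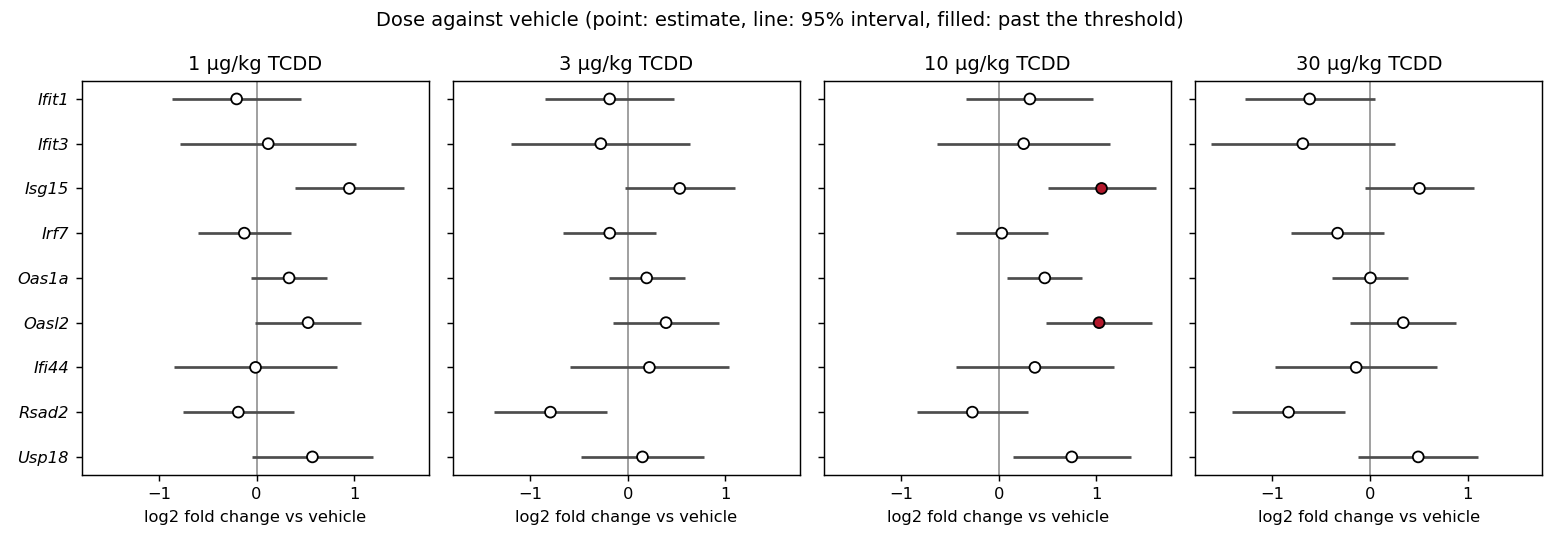
Log2 fold change against vehicle (x axis) of the 9 genes (y axis) at 1, 3, 10 and 30 μg/kg TCDD, with points for the estimate, lines for the 95% interval and filled points for genes past the threshold. The filled points are Isg15 and Oasl2 at 10 μg/kg, and Rsad2 lies below 0 with intervals that exclude 0 at 3 and 30 μg/kg.

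Without a model, the separation of whole groups can be read from the mice. At 1 μg/kg Isg15 and Oasl2 were higher than vehicle in all 3 mice, as were 8.78% of all genes. At 10 μg/kg Isg15, Oasl2 and Usp18 were, as were 12.1% of all genes, and at 30 μg/kg Usp18 was, as were 14.5% of all genes. In the other direction, Rsad2 was lower in all mice at 3 μg/kg (11.5% of all genes), and Rsad2 and Irf7 at 30 μg/kg (15.2% of all genes). At 0.01 μg/kg Oasl2 and Rsad2 (5.03% of all genes) and at 0.03 μg/kg Ifit1 and Ifi44 (6.55% of all genes) were lower in all 3 mice.

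Over the whole dose range, Isg15, Oasl2 and Usp18 rose with dose. The slope over the rank of the dose, from vehicle to 30 μg/kg, passed an adjusted p of 0.05 for these 3 genes, where 23.4% of all genes passed and 11.8% passed upward. Per step of dose, the log2 level rose by 0.15 for Oasl2 (SE 0.031, adjusted p = 0.000883), by 0.14 for Isg15 (SE 0.030, adjusted p = 0.00131) and by 0.11 for Usp18 (SE 0.028, adjusted p = 0.00439). Oas1a had a slope of 0.050 (adjusted p = 0.0598) and Rsad2 a slope of -0.061 (adjusted p = 0.0951). Ifi44 stood at 0.077, Ifit3 at 0.020, Ifit1 at 0.019 and Irf7 at -0.0073, none past the threshold.

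The index set follows the dose, and with it in the model the slopes of Isg15 and Oasl2 were smaller, whereas that of Usp18 stayed about as large with a wider error. With a term for the index set, 0 of the 9 genes passed, as did 0.0667% of all genes, with slopes of 0.061 (SE 0.054) for Isg15, 0.056 (SE 0.054) for Oasl2 and 0.11 (SE 0.052) for Usp18. Within index set 1 the slopes were 0.10, 0.068 and 0.11 for these 3 genes, and within index set 2 they were -0.062, 0.011 and 0.097. In neither set did any of the 9 genes pass by the adjusted p, where 0.00589% and 3.06% of all genes did, and 0 had an unadjusted p under 0.05, as 7.76% and 19.3% of all genes had. For all 9 genes, Usp18 among them, dose and index set cannot be told apart across most groups, since only the 1 μg/kg group held mice of both.

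Mouse 41, the single mouse of index set 1 at 1 μg/kg, could be set beside the 15 other mice of its index set. Its 8.79 CPM of Isg15 lay above all 15 of them, whose highest was 5.95 CPM. Its 75.6 CPM of Oasl2, 5.46 CPM of Usp18 and 20.8 CPM of Oas1a were also above all 15, whose highest values were 64.4, 4.10 and 17.9 CPM. For Ifit1, Irf7 and Rsad2 mouse 41 lay inside the range of the 15, above 5, 5 and 7 of them, and for Ifit3 and Ifi44 it lay above 11 and 13. Its smooth muscle markers, at 266 CPM in sum, were also above those of all but 1 of the 15 and above the 22.0 and 15.8 CPM of the other mice at its dose. Their part in its levels was not tested. This is 1 mouse, and the comparison carries no test.

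**Figure D3:**
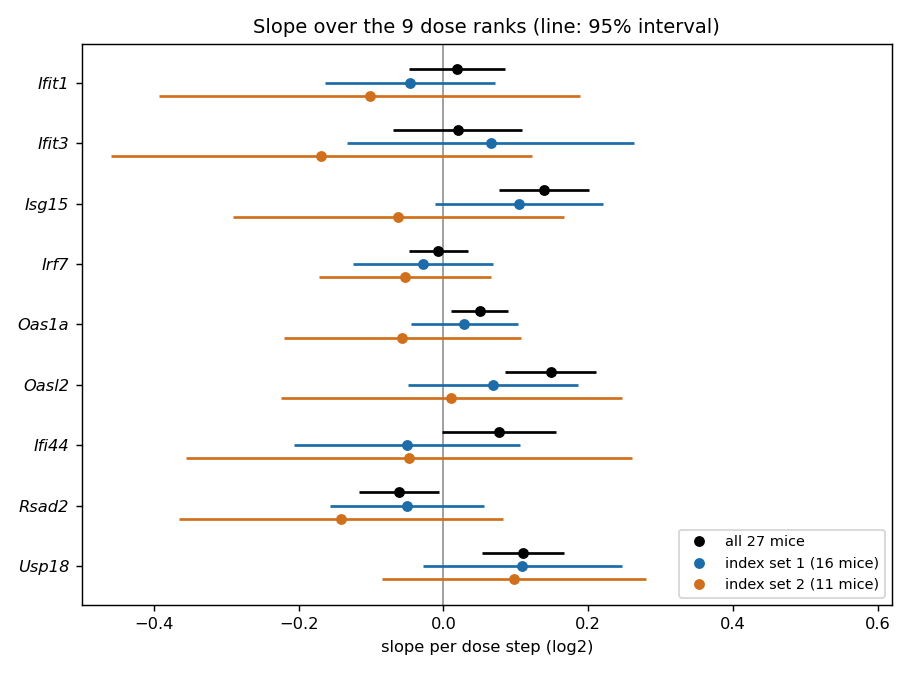
Slope per step of dose on the log2 scale (x axis) of the 9 genes (y axis) in all 27 mice and within each index set, with lines for the 95% interval. Isg15, Oasl2 and Usp18 lie above 0 in all 27 mice with intervals that exclude 0, and every interval within an index set includes 0.

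The 3 highest doses lie in the same index set, and none of the 9 genes passed the test between any pair of them. From 3 to 10 μg/kg all 9 estimates were positive, with a median log2 fold change of 0.52, and from 10 to 30 μg/kg all 9 were negative, with a median of -0.55. These comparisons share the mice at 10 μg/kg and were chosen after the values had been seen. Neither gave a call among the 9 genes by edgeR or DESeq2, where 0.0485% and 0% of all genes were called. At an unadjusted p under 0.05 stood 2 of the 9 from 3 to 10 μg/kg and 5 of the 9 from 10 to 30 μg/kg, among them Ifit1 with a log2 fold change of -0.94 (SE 0.32), where 4.8% and 6% of all genes did. From 3 to 30 μg/kg 0 of the 9 were called by edgeR or DESeq2 and 0 had an unadjusted p under 0.05, where 0.461% of all genes were called and 11% had such a p.

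Mice of the same dose differed widely in these genes, and most of the genes differed together. The biological coefficient of variation estimated by edgeR was above the median of genes of like level for all 9. It was 0.269 for Ifit1 against 0.0973, 0.224 for Oasl2 against 0.0878, 0.232 for Rsad2 against 0.105, and 0.153 for Oas1a against 0.107. The highest of the 27 values of Oasl2 was 5.52 times the lowest, and that of Ifit3 6.27 times. For each gene, deviations of log2 CPM from the mean of the dose group were correlated across the 27 mice, which leaves out any effect of dose on the mean. Over the 36 pairs of genes, Pearson's r had a median of 0.487 and ran from -0.249 to 0.792, and Spearman's rho had a median of 0.455. The r was above 0.5 in 18 pairs, or 50% of them, where 3.50% of pairs of all genes tested were above 0.5 and their median was -0.002. These points share libraries, 3 mice to a group, and the coefficients are descriptions without a p.

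The most tightly linked genes were Ifit1 and Ifi44 (r = 0.792), Ifit3 and Ifi44 (r = 0.775) and Isg15 and Oasl2 (r = 0.734). Against the mean of the other 8 genes, Oasl2 had an r of 0.799, Ifi44 0.750, Rsad2 0.750, Ifit3 0.732, Ifit1 0.708, Isg15 0.706 and Usp18 0.638. Irf7 was less close at 0.389, and Oas1a stood apart at 0.0426, with an r of -0.249 to Ifit1. The median over the pairs was 0.459 within index set 1 and 0.554 within index set 2. Rsad2 did not pass the slope test, as Ifi44 and Ifit1, its closest partners (r = 0.706 and 0.698), did not. Mouse 19 (0.03 μg/kg), mouse 33 (0.3 μg/kg) and mouse 65 (30 μg/kg) were above their group mean in all 9 genes, whereas mice 51 at 3 μg/kg and 59 at 10 μg/kg were above it in 0 of the 9. For Irf7 mouse 65 was barely above, at 92.0 CPM beside 92.2 and 91.1 CPM. Without mice 19 and 59, whose mean deviations were the highest and the lowest, the median r was 0.354. Within the dose groups the summed markers of smooth muscle also differed between mice, for instance 87.2 to 590 CPM at 30 μg/kg, as did the summed distal colon Hox genes, for instance 43.4 to 236 CPM at 10 μg/kg. The median r of the 5 tested Hox genes with the mean of the 9 genes was -0.314, that of the 5 smooth muscle markers 0.251 and that of the 11 leukocyte markers 0.240. It was 0.400 for the 3 tested markers of plasmacytoid dendritic cells, with 1 of them above 0.5. These 3 include Bst2, which is also listed among other interferon-stimulated genes. Macrophage and dendritic cell, adipocyte and epithelial markers had medians of 0.149, 0.0213 and -0.0494. The part of all these markers in the co-variation was not tested.

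**Figure D4:**
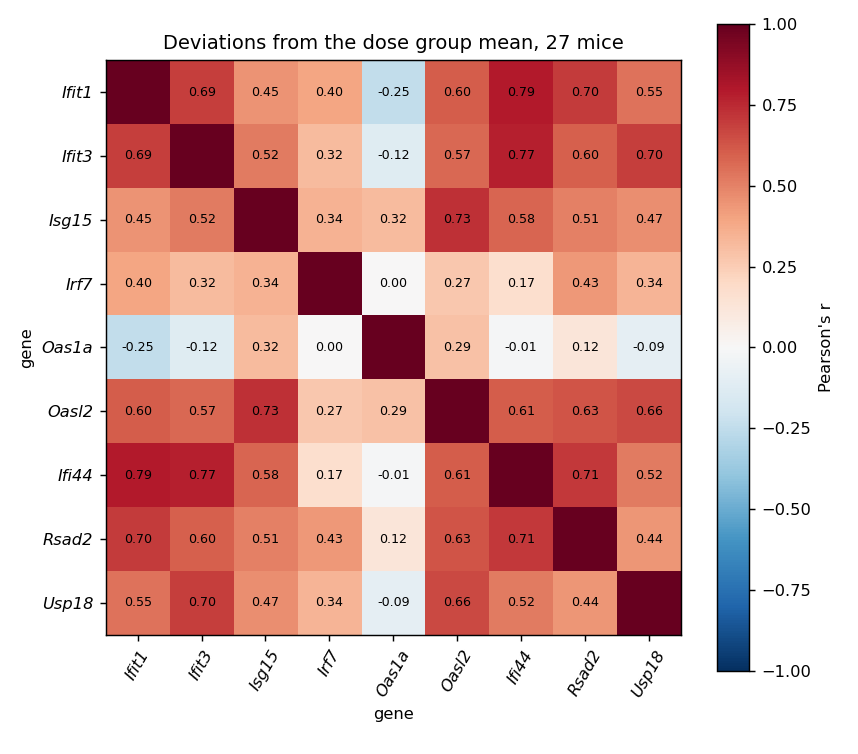
Pearson's r between each pair of the 9 genes (both axes), computed on deviations of log2 CPM (prior count 2) from the dose group mean over 27 mice, with red for positive and blue for negative values. Oas1a is the pale row, with r from -0.249 to 0.317, and the reddest pair is Ifit1 and Ifi44 at 0.792.

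**Figure D5:**
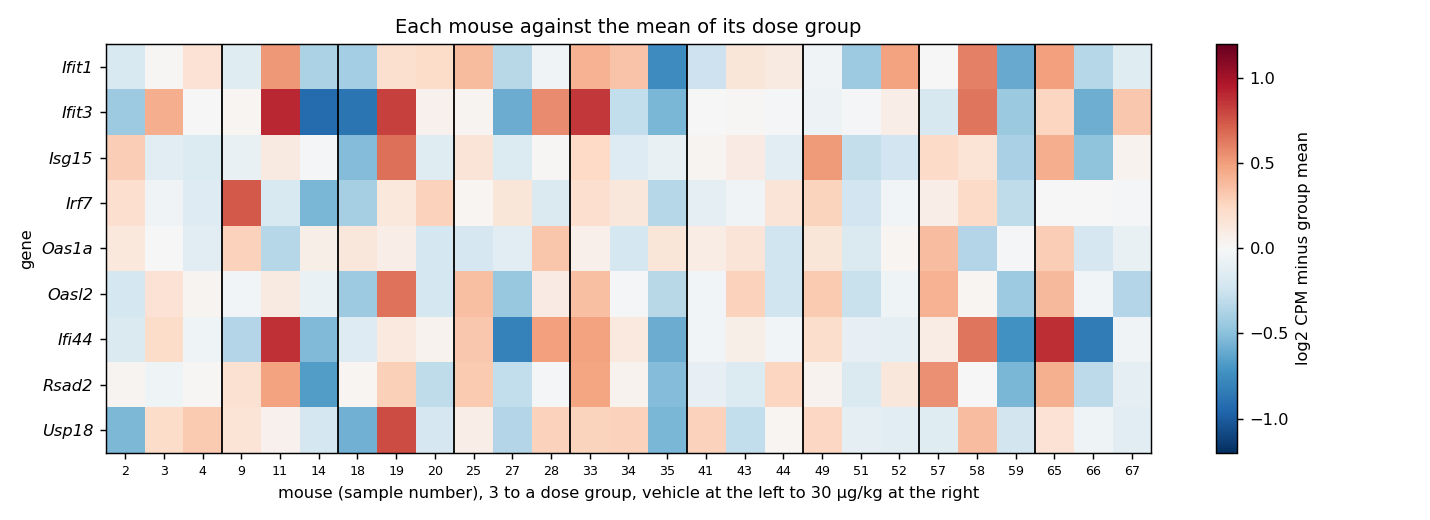
Log2 CPM (no prior count) of each gene (y axis) minus the mean of its dose group in each mouse (x axis, mice by number with lines between dose groups, vehicle at the left). Columns 19, 33 and 65 lie above the group mean in all 9 rows, and columns 51 and 59 hold no gene above its group mean. For Irf7 in mouse 65 the excess is too small to show as colour, at 92.0 CPM beside 92.2 and 91.1 CPM.

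Outside the 9 genes, the 3 whose deviations were most like the mean of the family were themselves interferon-stimulated. Among 14557 genes with a mean of at least 1 CPM, the highest r over the 27 mice belonged to Mx2 (0.873), a dynamin-like antiviral GTPase, Xaf1 (0.845) and Rtp4 (0.833). All 3 were on a list of 48 other interferon-stimulated genes, of which 44 were tested. The median r of these 44 with the family was 0.451, and 18 of them were above 0.5, as were 331 of the 16487 genes outside the family. The list was chosen with earlier results of these data known. The 6 genes of the JAK-STAT pathway and ISGF3 had a median r of 0.407, and the 6 interferon receptor genes 0.0519.

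Counts of the interferon genes themselves were close to 0. Of 20 interferon ligand genes of types I, II and III, none passed the filter on low counts. Ifnb1, Ifnl2, Ifnl3 and the listed Ifna genes had 0 counts in all 27 mice, and Ifnk and Ifng reached 2 counts in a mouse. Summed over the list, the ligands lay between 0 and 0.319 CPM in every mouse and were at 0 in all 3 mice at 0.03, 1 and 10 μg/kg. A count of 0 allows up to 3 counts, which is 0.209 to 0.322 CPM in these libraries and covers counting error only. Reads without a unique position were not counted, so any shared between similar ligand genes would be missed. The receptors were present, with a mean of 55.3 CPM for Ifnar1, which encodes a subunit of the type I receptor, and 24.1 CPM for Ifnlr1, the specific subunit of the type III receptor. At 10 μg/kg Ifnar1 had a log2 fold change of 0.087 and Ifnlr1 of -0.25, and 0 of the 6 receptor genes were called at any dose by edgeR. By the slope 2 passed upward (Il10rb and Ifngr2), where 11.8% of all genes did. Once the index set was in the model 0 passed, where 0.0667% of all genes did.

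Other genes of the pathway passed the slope test in part, where 11.8% of all genes passed upward. In each list of this paragraph 0 genes passed the slope test once the index set entered the model. Of the transducers, Stat2 rose by the slope (0.047 per step, adjusted p = 0.0362) and was 1 of 6 genes of that list to pass. The median slope of these 6 was 0.024, and with the index set term it was -0.023. Irf9, which encodes the partner of STAT2 in ISGF3, had a slope of 0.035 (adjusted p = 0.137). Of the 3 enzymes tested that load ISG15 onto its targets, 2 rose by the slope, the activating enzyme Uba7 (0.061 per step, adjusted p = 0.00742) and the conjugating enzyme Ube2l6 (0.100 per step, adjusted p = 0.000879). The slope of the third, the ligase Herc6, was 0.064 (adjusted p = 0.107). Of 12 nucleic acid sensors and adaptors tested, 3 rose by the slope, namely Ddx58, which encodes the RNA sensor RIG-I, Dhx58 and Ticam1, and 0 of the 7 other interferon regulatory factors passed. Against vehicle 1 of those 7, Irf4, was called at 30 μg/kg once the index set was in the model (log2 fold change 2.24, SE 0.61, adjusted p = 0.0376), where 4.43% of all genes were, and it was not called without it (0.58, adjusted p = 0.378). Within each index set 0 sensors and adaptors, 0 transducers and 0 of the enzymes passed. Among the 9 negative regulators, Ptpn6 and Tiparp rose and Rnf125 fell by the slope, and within index set 2 Tiparp alone passed (0.41 per step, adjusted p = 0.00217), where 3.06% of all genes did. Against vehicle 2 of the 9 were called at 30 μg/kg, where 6.16% of all genes were, and 0 once the index set was in the model, where 4.43% of all genes were. Socs1, a suppressor of cytokine signaling, fell at 30 μg/kg from 4.42 ± 0.497 to 1.85 ± 0.484 CPM (log2 fold change -1.25, SE 0.28, adjusted p = 0.00659). Tiparp, an AhR target that restrains AhR and interferon signaling, rose at 30 μg/kg from 27.3 ± 4.90 to 56.1 ± 6.89 CPM (log2 fold change 1.04, SE 0.16, adjusted p = 0.000184).

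Of the 44 other interferon-stimulated genes tested, 16 rose and 1 (Ifit3b) fell by the slope, where 11.8% and 11.6% of all genes did. With a term for the index set 0 of the 44 passed. The median slope was 0.027 per step, and over all genes it was -0.0017. Against vehicle, calls among the 44 numbered 1, 2 and 4 at the doses of 3, 10 and 30 μg/kg (the 4 being 3 higher and 1 lower), where 0.697%, 1.78% and 6.16% of all genes were called. Once the index set was in the model 0, 0 and 1 were called at these doses (Ifitm3 at 30 μg/kg), where 0.0121%, 0.352% and 4.43% of all genes were. Oas3, a further oligoadenylate synthetase, rose at 10 μg/kg from 21.8 ± 3.92 to 46.1 ± 11.8 CPM (log2 fold change 1.08, SE 0.24, adjusted p = 0.0148) and remained called at 30 μg/kg (0.76, adjusted p = 0.045). Ifitm3, which restricts virus entry, was called at the 3 highest doses (log2 fold changes of 0.90, 0.82 and 1.01 in rising order), with means of 4.00 ± 0.298 CPM in vehicle mice and 8.06 ± 1.95 CPM at 30 μg/kg. Ifi27l2a was also called at 30 μg/kg, from low levels of 0.0984, 0.105 and 0.785 CPM in vehicle mice to 1.34, 1.51 and 2.16 CPM. Ifit1bl2, a close copy of Ifit1, fell at 30 μg/kg from 30.4 ± 5.92 to 14.02 ± 1.56 CPM (log2 fold change -1.12, SE 0.29, adjusted p = 0.0166). Mx2, the gene most like the family among mice, had a slope of -0.0098 (adjusted p = 0.88).

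Markers of other cells were examined because a scraping can take up other layers. Of the smooth muscle markers most rose by the slope, as Isg15, Oasl2 and Usp18 did. Summed over 5 markers they lay at 42.97 to 79.6 CPM in vehicle mice, 34.2 to 289 CPM from 0.01 to 0.3 μg/kg, 15.8 to 266 CPM at 1 μg/kg, 90.9 to 234 CPM at 3 μg/kg, 143 to 244 CPM at 10 μg/kg and 87.2 to 590 CPM at 30 μg/kg, and 4 of the 5 passed the slope test upward, as did 11.8% of all genes. With a term for the index set 0 of the 5 passed, within index set 1 also 0, and within index set 2 again 4. Of all genes 0.0667%, 0.00589% and 3.06% passed in these fits. Against vehicle 0 of the 5 were called at any dose. Once the index set was in the model 3 were called at 10 μg/kg and all 5 at 30 μg/kg, all higher, where 0.352% and 4.43% of all genes were called. Epithelial markers rose by the slope in 5 of 9 genes, where 11.8% of all genes did, and in 0 of 9 with the index set term or within either set. Leukocyte markers gave 0 calls of 11 by the slope, with sums of 33.6 to 39.9 CPM in vehicle mice, 29.0 to 31.5 CPM at 0.01 μg/kg, 28.5 to 37.0 CPM at 10 μg/kg and 29.3 to 30.9 CPM at 30 μg/kg. Of the 8 macrophage and dendritic cell markers 0 passed. Plasmacytoid dendritic cells are the main source of type I interferon in blood, and of 5 markers listed for them 3 were tested and 0 passed. Counts per mouse were low for Siglech (1 to 11), Ly6d (0 to 9) and Ccr9 (1 to 19). They were 23 to 97 for Bst2 and 3469 to 6520 for Klk1, so the 5 markers did not share 1 level. The 4 adipocyte markers summed to 5.76 to 16.7 CPM in vehicle mice and 27.8 to 61.0 CPM at 0.01 μg/kg, where leukocyte sums were below vehicle in all 3 mice. All 9 estimates were below vehicle at that dose, and also at 0.03 and 0.1 μg/kg. At 0.03 and 0.1 μg/kg the adipocyte sums, of 6.68 to 23.9 and 8.91 to 18.5 CPM, overlapped those of vehicle mice. At 0.01 μg/kg 0 of the 4 adipocyte markers were called (median log2 fold change 2.59), as were 0% of all genes. At 30 μg/kg 1 was (Cidec, 1.80, adjusted p = 0.00963, edgeR), where 6.16% of all genes were and the sums were 14.7 to 85.9 CPM. Of the 4, 0 passed the slope test. The part of these cells in the levels of the 9 genes was not tested.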

How the data were processed

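RNA was extracted from scrapings of colonic epithelium and libraries were made with the Ovation Mouse RNA-Seq System. Per the labels, the authors used FastQC 0.11.3, Trimmomatic 0.33, TopHat2 2.1.0, SAMtools 1.2.0, HTSeq 0.6.1 and DESeq on build GRCm38. Which annotation they counted, and whether by strand, is not given in the sources used here. The deposited values are raw read counts per gene for each mouse. Lines naming no gene were left out, among them reads outside features (29.1% to 33.3% of the sum over all lines) and reads without a unique position (30.7% to 37.1%).

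Genes were filtered with filterByExpr (minimum count 10), scaled by TMM and tested in edgeR 4.0.16 (R 4.3.3) with quasi-likelihood tests, all 9 groups in 1 fit, with Benjamini-Hochberg adjustment over 16496 genes. The study used an empirical Bayes method, which was not used here. Correlations used log2 CPM with a prior count of 2 (pandas 2.3.3). DESeq2 1.42.0 was an alternative. Code for the tests was tested on simulated data. Gene positions come from GENCODE M21 (GRCm38). Index sets were inferred from the order of the index barcodes. Other genes were named where they were called, were among the 10 most alike or had one of the highest levels of a list. Irf9, Herc6, Ifnar1, Ifnlr1, Siglech, Ly6d, Ccr9 and Irf4 were named after their values were seen. Groups were taken from the labels, and the 9 genes and all lists were chosen with earlier results of these data known. Some listed genes count in the list totals but are not reported here singly.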

Additional observations from a re-analysis of the deposited data

How the results depend on the processing

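At 10 μg/kg, 2 genes passed with RLE scaling, no filter on low counts, DESeq2, a fit of the 2 groups only and the adjusted p alone, 0 with a term for the index set, and 0 to 2 with each mouse left out in turn. At 30 μg/kg, 1 gene (Rsad2) passed with no filter, with a fit of the 2 groups only and with DESeq2, and 0 to 1 with each mouse left out. At 3 μg/kg, 1 (Rsad2) passed in a fit of the 2 groups only. The share of all genes called was 6.81% for DESeq2 at 30 μg/kg. It was not computed for the fits with RLE scaling, no filter or the 2 groups only. The slope was passed by 0 of the 9 with a term for the index set, within index set 1 and within index set 2, and by 3 to 4 with each mouse left out. The cause of these differences was not tested, and the fits within a set also held fewer mice. The fits within index sets, the other lists against vehicle with the index set in the model, the contrasts with 10 μg/kg as reference and the co-variation without 2 mice were chosen after the data were seen.

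Changes of sign occurred only in estimates that had not passed, apart from the slope of Isg15, which was -0.062 within index set 2. With a term for the index set, Ifit1 and Irf7 at 10 μg/kg had log2 fold changes of -0.054 and -0.13, and the slopes were -0.059 for Ifit1 and -0.050 for Ifi44. Within index set 1 the slopes of Ifit1 and Ifi44 were -0.046 and -0.050. Within index set 2 those of Ifit1, Ifit3, Oas1a and Ifi44 were -0.10, -0.17, -0.057 and -0.048. The slope of Irf7 was 0.014 over log10 of the dose without vehicle. With each mouse left out, the log2 fold changes at 10 μg/kg ran from -0.034 to 0.57 for Ifit1, -0.13 to 0.49 for Ifit3 and -0.087 to 0.17 for Irf7. At 30 μg/kg they ran from -0.16 to 0.10 for Oas1a and from -0.72 to 0.18 for Ifi44, and the slopes from -0.0093 to 0.034 for Ifit1, -0.0070 to 0.041 for Ifit3 and -0.018 to 0.0048 for Irf7. The median r of the 36 pairs ran from 0.436 to 0.532 with each mouse left out. No paired analysis was possible because no 2 groups share a mouse number. Counts under 60 per mouse in Ifit3 and Ifi44 limit what can be seen in these genes.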

Other observations

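Some genes known for their response to interferon gamma and some of MHC class I presentation passed the slope test over the dose range. Of 16 tested interferon gamma genes, 6 rose by the slope and 0 fell (Gbp2, Gbp3, Irgm1, Irgm2, Cxcl11 and Ido1), where 11.8% of all genes rose. The estimate was above 0 for 8 of the 16, with a median slope of 0.021. Against vehicle, the median log2 fold change of the 16 was below 0 at 7 of the 8 doses, with values of -0.78, 0.012 and -0.38 at the doses of 0.01, 10 and 30 μg/kg. Gbp3, a guanylate-binding GTPase, was called at 10 μg/kg, where its mean went from 2.79 ± 0.252 to 5.45 ± 1.75 CPM (SD, n = 3, log2 fold change 0.97, SE 0.27, adjusted p = 0.0473 by edgeR). This was 1 of the 16 called at that dose, where 1.78% of all genes were, and 0 were with the index set in the model. Ido1, the enzyme that degrades tryptophan, had a slope of 0.17 per step (adjusted p = 0.00114). Of the 13 MHC class I genes, 5 rose by the slope (H2-K1, Tapbpl, Psmb10, Psme1 and Nlrc5), and 0 were called against vehicle at 10 or 30 μg/kg. Nlrc5, a transactivator of these genes, had a slope of 0.089 (adjusted p = 0.0431). With a term for the index set 0 of the 16 and 0 of the 13 passed, where 0.0667% of all genes did, and the median slopes were 0.010 and 0.0015.

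Among the 10 genes most like the family across mice, the 7 that follow Mx2, Xaf1 and Rtp4 were on none of the lists. They were Gm11437 (r = 0.776), Fads6 (0.769), Hexa (0.751), Mcmdc2 (0.743), Apol9a (0.733), Cck (0.731) and St6gal1 (0.730). Hexa encodes a subunit of a lysosomal hexosaminidase and had a mean of 80.1 CPM, and St6gal1, a sialyltransferase, had a mean of 103 CPM. Within index set 2 the r of Hexa was 0.598 and that of St6gal1 0.516.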
